A study of Mus musculus with 28 samples.

Results

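The genes described here are 37 members of glucose breakdown and of the response to low oxygen, chosen by gene symbol: glucose transporters, glycolytic enzymes, enzymes and carriers that handle pyruvate and lactate, the oxygen-sensing machinery around Hif1a, and further genes known to be induced in hypoxia. All 37 were found among the 25124 genes of the deposited expression table, and 36 of them passed the filter on low values. The member that did not pass was Vegfa, a secreted growth factor for blood vessels.

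Expression was measured by RNA sequencing in 28 libraries of CD4+ T cells that were sorted from mouse small intestinal lamina propria. The sort kept live cells positive for CD45, CD90.2, the T cell receptor beta chain and CD4. Every mouse, controls included, carried the T-bet-ZsGreen reporter, a fluorescent protein that reports the transcription factor T-bet, and ZsGreen was not part of the stated sort gate. Housing was specific-pathogen-free (SPF), which leaves the mice a gut flora, or germ-free (GF). The mice received aCD3, an antibody to the CD3 chains through which the T cell receptor signals, or a control antibody of the same isotype. The 4 groups were SPF mice given isotype (n = 6, 3 female and 3 male), SPF mice given aCD3 (n = 6, 3 female and 3 male), GF mice given isotype (n = 10, 5 female and 5 male) and GF mice given aCD3 (n = 6, 1 female and 5 male). Dose, time after injection, age and the number of mice behind a library are not given in the sources used here, so p-values measure the spread between libraries, whatever its source. A replicate's name joins its sex letter and its number (F1, M3).

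Glycolysis splits glucose into pyruvate in the cytosol. Lactate dehydrogenase then turns pyruvate into lactate and renews the NAD+ that the pathway needs, while pyruvate dehydrogenase feeds pyruvate to the mitochondria unless a pyruvate dehydrogenase kinase blocks it. Activated T cells are known to raise glycolysis even when oxygen is plentiful. The transcription factor HIF-1 drives many of the same genes: its alpha subunit, encoded by Hif1a, is marked for destruction by oxygen-dependent prolyl hydroxylases (the Egln genes) and the ubiquitin ligase subunit Vhl, so its activity is controlled largely at the protein level, which RNA does not show.

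Values are length-normalised transcript shares (TPM) divided by a scale factor for each library, called scaled TPM below. For 99.2% of genes the authors' TPM divided reads by the whole genomic span, introns included, so levels are compared between libraries and never between genes. The scale factor, a median of ratios over 11055 genes, was needed because each TPM is a share of its library's total, and 69 replication-dependent histone genes took 4.05% to 7.04% of the total in SPF isotype libraries and 23.8% to 26.8% in SPF aCD3 libraries. Reads in genes ran from 6765530 to 17860593 per library. A member had a median of 10 to 8498 reads per library, and the median was under 100 reads in 5 members: Aldoc, Ankrd37, Bnip3, Vegfa and Slc16a3. Of the 37 members, 16 overlap another annotated gene, 5 of them on the same strand (Slc2a1, Pfkm, Pkm, Slc16a1 and Hif1a), and 8 have pseudogenes that bear their name (Aldoa, Gapdh, Pgk1, Pgam1, Ldha, Ldhb, Vhl and Bnip3l). The use of strand and of reads that map to several places is not stated, so the values of these members are uncertain to that extent.

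The 6 GF libraries labelled aCD3 fell into separate levels, which matters for every result in GF mice. Histone genes took 23.4%, 23.1% and 26% of TPM in M1, M2 and M5, as in SPF aCD3, but 5.39%, 7.46% and 6.43% in F1, M3 and M4, within the 3.79% to 9.24% of GF isotype. Results that use GF aCD3 are therefore given with all 6 libraries, as labelled, and without F1, M3 and M4. Since that second set was picked by measured values, it describes those libraries and is no independent evidence of an aCD3 effect. Column names put the SPF libraries at sample numbers 1 to 12 and the GF libraries at 25 to 33 and 48 to 54, so colonisation and these runs of numbers cannot be told apart. Whether the runs are batches is not stated in the sources used here. The SPF isotype library F3 had 22.9% of its TPM in the ribosomal RNA precursor Rn45s.

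Markers of T cells were high in every library, and those of most other cell types were low. The summed level of 7 T cell markers was 1743 to 2011 scaled TPM in SPF isotype and 2218 to 2514 in SPF aCD3. In GF mice it was 1676 to 1883 with isotype and 1583 to 2131 with aCD3, with Cd4 between 164 and 298 in all 28 libraries. Marker sums of several other cell types moved with treatment in SPF mice. For plasma cells, the summed level of 7 B and plasma cell markers was 112 to 261 in SPF isotype, mostly Jchain, and 3.57 to 11.6 in SPF aCD3. The summed level of 8 stromal and endothelial markers was 13.0 to 39.1 in SPF isotype and 3.72 to 5.46 in SPF aCD3. The summed level of 8 myeloid markers was 0.576 to 12.9 in SPF isotype and 75.9 to 194 in SPF aCD3, and Cd68 alone was 0 to 11.5 and 71.0 to 147.8. The SPF aCD3 library F1 also held S100a8 at 85.4 and S100a9 at 33.4, both 0 in every SPF isotype library and at most 1.71 and 0.268 in the other 5 aCD3 libraries. Lyz2 and Csf1r had lower medians with aCD3, with overlapping groups: 0.805 and 0.0722 for Lyz2 and 0.215 and 0.113 for Csf1r in SPF isotype and SPF aCD3. Without F1 of SPF aCD3 the SPF comparison below made the same 26 calls. The summed level of 2 CD8 T cell markers was 5.17 to 15.7 in SPF isotype and 13.6 to 31.1 in SPF aCD3, and that of 11 epithelial markers 7.75 to 21.5 and 7.04 to 15.4. In GF isotype Cd8a was 52.1 in M4 and at most 6.38 in the other 9 libraries. The summed level of 8 proliferation genes was 83.0 to 184 in SPF isotype and 1061 to 1131 in SPF aCD3, and in GF mice 70.9 to 245 with isotype and 105 to 1212 with aCD3. The summed level of 10 pancreatic acinar markers was at most 25.5 in SPF mice, 2.02 to 71.5 in GF isotype and 3.35 to 450.2 in GF aCD3. Marker levels also moved with the division of GF aCD3. The proliferation sum was 1034 to 1212 in M1, M2 and M5 and 105 to 268 in F1, M3 and M4, and the T cell sum 1951 to 2131 and 1583 to 1851. Thy1, of the T cell list, went the other way with overlap. It was 308, 301 and 373 in M1, M2 and M5 and 539, 364 and 460 in F1, M3 and M4, against 395 to 673 in GF isotype. Jchain was 0.204 to 1.2 in M1, M2 and M5 and 14.9 to 72.4 in F1, M3 and M4, and Cd68 was 49.8 to 70.1 and 6.75 to 11.5. Cd79b and Csf1r, of the same lists, went the other way: Cd79b was 7.01 to 7.64 and 1.75 to 4.48, and Csf1r 0 to 0.126 and 0.168 to 0.822. The CD8 sum was 10.8 to 15.5 and 3.05 to 6.52, and the stromal sum 4.10 to 5.63 and 7.69 to 10.3. The acinar sum was 8.92, 43.9 and 3.35 in M1, M2 and M5 and 96.9, 450.2 and 26.6 in F1, M3 and M4. The epithelial sum was 10.1, 7.46 and 9.48 against 32.9, 9.85 and 32.2, so both sums overlapped. The part of these cell types and of proliferation in the results below was not tested.

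Promoter sequence is shown for 6 members, the 3 that rose most and the 3 that fell most with aCD3 in SPF mice among those whose RefSeq start equals the start in the expression table, because HIF and its partners bind short motifs near gene starts. Each run is the 250 bases before the RefSeq start in build GRCm38.p6, 5′ to 3′ on the gene's own strand. They lie at chr11:120948817-120949066 (Slc16a3, plus strand), chr7:46846832-46847081 (Ldha, plus), chr12:73907617-73907866 (Hif1a, plus), chr11:78323948-78324197 (Aldoc, plus), chr10:59323046-59323295 (P4ha1, plus) and chr14:45318573-45318822 (Ero1l, minus). Capitals mark the motifs searched, on either strand. ACGTG is the common core of a hypoxia response element. GCGTG is its other form. The E-box CACGTG, bound by Myc and related factors, holds the common core on both strands.
Slc16a3: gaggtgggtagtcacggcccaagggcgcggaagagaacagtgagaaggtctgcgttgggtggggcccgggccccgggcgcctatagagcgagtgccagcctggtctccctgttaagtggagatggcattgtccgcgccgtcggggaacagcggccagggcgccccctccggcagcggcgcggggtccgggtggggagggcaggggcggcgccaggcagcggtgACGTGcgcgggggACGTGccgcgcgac
Ldha: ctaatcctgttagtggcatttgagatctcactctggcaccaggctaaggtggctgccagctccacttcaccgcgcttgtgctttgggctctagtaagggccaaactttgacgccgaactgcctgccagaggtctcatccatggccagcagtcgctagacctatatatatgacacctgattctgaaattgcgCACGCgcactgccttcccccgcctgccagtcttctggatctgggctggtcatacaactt
Hif1a: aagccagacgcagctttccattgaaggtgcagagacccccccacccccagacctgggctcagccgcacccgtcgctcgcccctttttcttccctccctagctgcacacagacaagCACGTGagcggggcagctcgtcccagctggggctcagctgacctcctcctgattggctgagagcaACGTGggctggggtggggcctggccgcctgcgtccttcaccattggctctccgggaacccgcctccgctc
Aldoc: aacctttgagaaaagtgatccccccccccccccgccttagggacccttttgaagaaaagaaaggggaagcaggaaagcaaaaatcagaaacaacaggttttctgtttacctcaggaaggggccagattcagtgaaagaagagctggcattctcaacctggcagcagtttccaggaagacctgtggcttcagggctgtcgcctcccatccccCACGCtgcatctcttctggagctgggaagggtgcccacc
P4ha1: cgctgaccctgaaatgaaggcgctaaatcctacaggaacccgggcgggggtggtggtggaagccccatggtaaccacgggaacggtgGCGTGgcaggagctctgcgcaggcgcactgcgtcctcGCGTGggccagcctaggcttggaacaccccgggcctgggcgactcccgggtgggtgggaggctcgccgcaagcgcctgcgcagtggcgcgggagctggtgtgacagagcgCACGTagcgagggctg
Ero1l: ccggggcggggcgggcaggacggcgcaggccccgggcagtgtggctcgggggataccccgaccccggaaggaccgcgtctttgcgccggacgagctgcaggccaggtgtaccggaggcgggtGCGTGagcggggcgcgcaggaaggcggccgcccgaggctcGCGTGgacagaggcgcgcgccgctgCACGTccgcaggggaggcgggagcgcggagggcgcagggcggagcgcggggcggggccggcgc

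The Slc16a3 window held ACGTG at 2 places and the Hif1a window held it at 3 counting both strands, of which 2 lie in an E-box. The Ldha and Aldoc windows held GCGTG at 1 place each and no ACGTG. The windows of P4ha1 and Ero1l, which both fell after aCD3 in SPF mice, held ACGTG at 1 place and GCGTG at 2. RefSeq promoters were matched for 34 of the 37 members, with no entry for Slc2a3, Bnip3l and Ndrg1. ACGTG was in 52.9% of the members' windows (18 of 34), against 22.0% of the windows of 11497 tested genes and 16.6% of all 32851. GCGTG was in 58.8% of members, 44.5% of tested genes and 28.2% of all, and the E-box in 14.7%, 8.44% and 6.02%. These matches describe sequence and do not show binding. Among members with a matched window that passed the test in SPF mice, ACGTG was in 8 of 14 that rose and 4 of 10 that fell, and GCGTG in 4 of 14 and 9 of 10. The RefSeq starts used for Tpi1, Pkm and Mxi1, which rose, lie at offsets of -138, 208 and -713 bases from the start in the expression table. The same split was not counted for all genes that rose or fell, so it cannot be called particular to the members.

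The comparison of aCD3 with isotype in SPF mice asks how the RNA of intestinal CD4+ T cells answers to T cell receptor engagement. Of the 36 members tested, 15 rose and 11 fell (limma, Benjamini-Hochberg adjusted p under 0.05 over 12182 genes). The background was high: 30.2% of all tested genes rose and 29.8% fell, against 41.7% and 30.6% of the members. The median log2 fold change was 0.12 over the members and -0.02 over all tested genes, and its median size, regardless of sign, was 0.52 and 0.40. Enzymes of the same pathway went in opposite directions: Tpi1, Pkm, Ldha, Eno1 and Pgk1 rose by more than 1 on the log2 scale, while Gapdh, Aldoc, Pfkp and Pfkl fell. Log2 fold changes are on the log2(scaled TPM + 1) scale, which understates changes of low genes. In bulk RNA, fewer cells of a type and less RNA per cell cannot be told apart.

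Which of the smaller changes passed depended on the scaling. None of the 26 members called after scaling turned its sign in TPM as deposited, while Egln1 and Higd1a, near 0 after scaling, turned and were called lower there. In TPM as deposited, 27 members passed, 10 higher and 17 lower, beside 14.2% of all genes higher and 50.7% lower and a shift of -0.35 in the median gene. Against that shift, the members that rose most kept their place: Slc16a3, Tpi1, Ldha, Pkm, Hif1a, Ndrg1, Eno1, Pgk1, Mxi1 and Hk2 were the 10 higher in both. The 17 lower were the 11 that fell after scaling and 6 that did not pass there: Slc2a3, Ldhb, Egln1, Vhl, Higd1a and Bnip3, at -0.32 to -0.50, near the shift of the median gene.

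**Figure D1:**
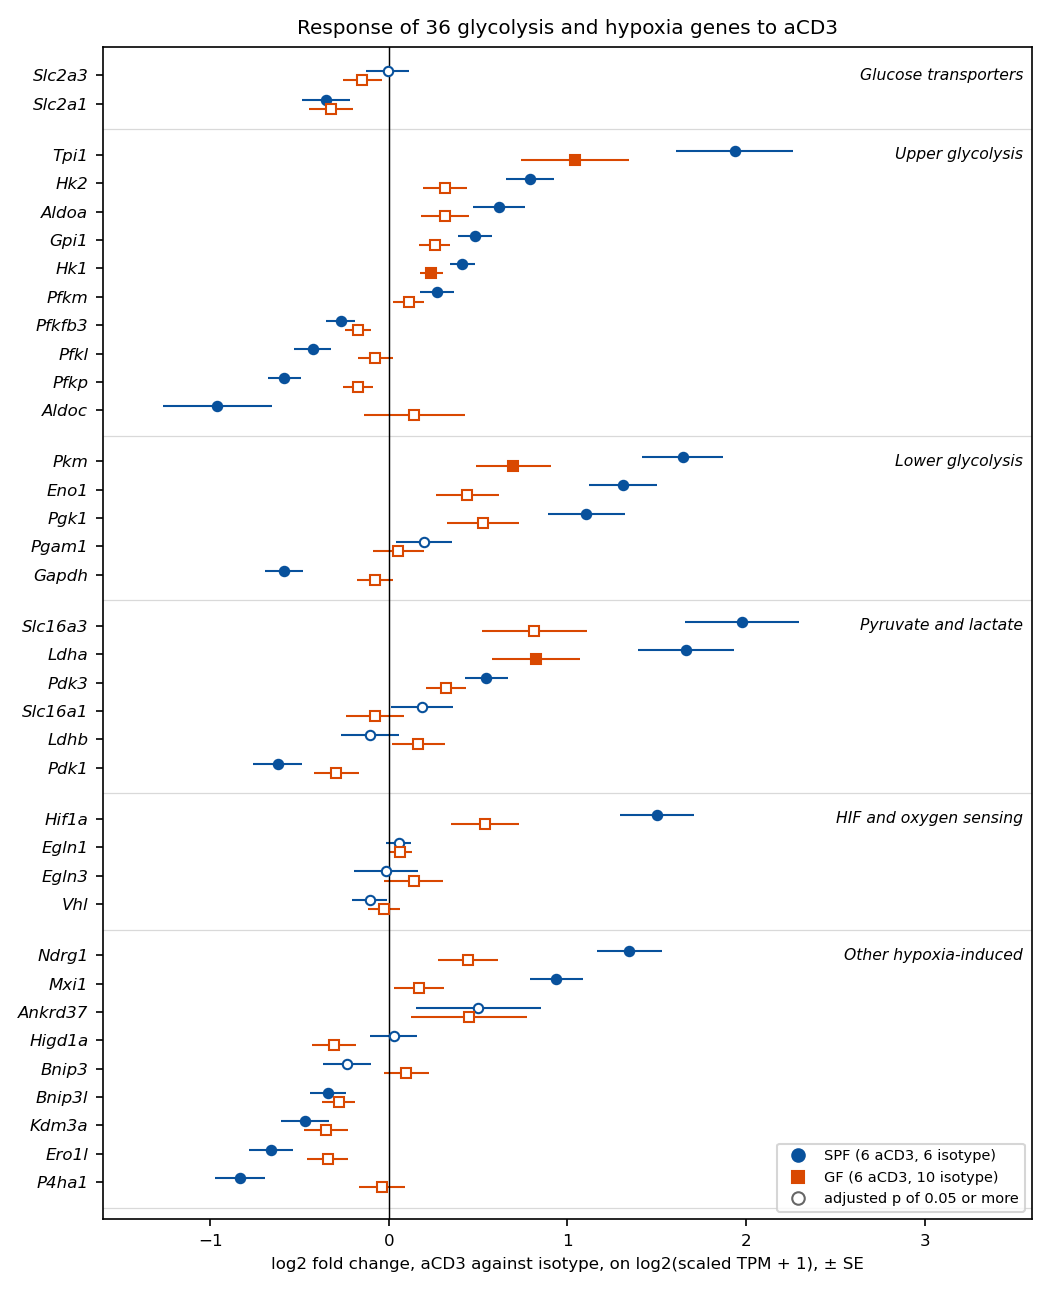
Log2 fold change of aCD3 against isotype (horizontal axis, log2(scaled TPM + 1), bars ± SE of the limma fit) for 36 members grouped by role, with blue circles for SPF (6 and 6 libraries) and orange squares for GF (6 aCD3 and 10 isotype libraries). Filled symbols passed an adjusted p of 0.05, which 26 members did in SPF and 4 in GF, and each role except the glucose transporters and oxygen sensing holds filled SPF symbols on both sides of 0.

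Neither glucose transporter rose. Slc2a1, the widespread importer GLUT1, ran from 13.7 to 24.6 scaled TPM (median 18.4) in SPF isotype and from 12.7 to 16.0 (median 14.1) in SPF aCD3. The groups overlapped, with 2 of 6 aCD3 libraries below every isotype library, and Slc2a1 fell by 0.35 on the log2 scale (SE 0.13, limma adjusted p = 0.0251). Slc2a3, the high-affinity importer GLUT3, ran from 22.5 to 33.8 (median 29.3) in isotype and from 24.2 to 33.9 (median 27.8) in aCD3, with a log2 fold change of -0.01 (SE 0.12, adjusted p = 0.971).

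All 10 members of upper glycolysis, from the trapping of glucose to triose phosphates, passed the test, 6 higher and 4 lower. Tpi1, triosephosphate isomerase, ran from 27.8 to 42.6 scaled TPM (median 37.1) in SPF isotype and from 120 to 159 (median 142) in SPF aCD3 (log2 fold change 1.94, SE 0.33, adjusted p = 2.69e-05). The groups were far apart. Hk2, the inducible hexokinase of activated and tumour cells, ran from 5.17 to 9.67 (median 6.24) and from 10.1 to 15.0 (median 12.1), a log2 fold change of 0.79 (SE 0.13, adjusted p = 2.15e-05). The highest isotype library lay just under the lowest aCD3 library. Aldoa, the aldolase of muscle and many other tissues, rose by 0.62, the glucose-6-phosphate isomerase Gpi1 by 0.48 and Hk1, the housekeeping hexokinase, by 0.41, each without overlap between the groups. The muscle phosphofructokinase Pfkm rose by 0.27 with overlapping groups. These 4 and the pyruvate dehydrogenase kinase Pdk3 were the members that rose but did not pass in TPM as deposited.

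The members of upper glycolysis that fell included the phosphofructokinases other than Pfkm. Pfkp, the platelet form, fell from 28.4 ± 2.32 (SD, n = 6) to 18.6 ± 0.883 scaled TPM and the liver form Pfkl from 10.5 ± 1.31 to 7.52 ± 0.734, with log2 changes of -0.59 and -0.43 (adjusted p = 1.14e-05 and 0.00121). Neither overlapped between the groups. Pfkfb3, whose product makes the activator of phosphofructokinase, fell by 0.27 (adjusted p = 0.00551). Aldoc, the brain aldolase, ran from 2.19 to 5.60 (median 3.54) in isotype and from 0 to 3.69 (median 1.47) in aCD3, a log2 change of -0.96 (SE 0.31, adjusted p = 0.00886). Its groups overlapped, and it had a median of 14 reads per library.

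In lower glycolysis, from glyceraldehyde phosphate to pyruvate, 3 of 5 members rose and 1 fell. Pkm, the pyruvate kinase of the last step, ran from 64.2 to 78.8 (median 69.6) in SPF isotype and from 189 to 250 (median 220) in SPF aCD3 (log2 fold change 1.65, SE 0.23, adjusted p = 3.08e-06). The value sums the M1 and M2 splice forms, which gene-level values do not separate. Eno1, enolase, rose from 30.1 ± 7.13 to 74.4 ± 8.70 (log2 1.31, adjusted p = 5.69e-06) and Pgk1, phosphoglycerate kinase, from 7.96 ± 0.998 to 18.2 ± 1.44 (log2 1.11, adjusted p = 0.000123). Gapdh, the enzyme just before Pgk1 and a common reference gene in RNA work, fell from 67.6 ± 6.81 to 44.7 ± 4.72 (log2 -0.59, adjusted p = 6.54e-05), with all 6 aCD3 libraries below all isotype libraries. Pgam1, the mutase between Pgk1 and Eno1, had a log2 fold change of 0.20 (SE 0.16, adjusted p = 0.277).

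Among the members that handle pyruvate and lactate, 3 of 6 rose and 1 fell. Slc16a3 encodes MCT4, a carrier that exports lactate from strongly glycolytic cells. It ran from 1.81 to 3.16 scaled TPM (median 2.60) in SPF isotype and from 9.06 to 17.3 (median 13.6) in SPF aCD3 (log2 fold change 1.98, SE 0.32, adjusted p = 1.45e-05), the highest of the 36 members. Slc16a1, which encodes the lactate carrier MCT1, had a log2 fold change of 0.19 (SE 0.18, adjusted p = 0.374). Ldha, the lactate dehydrogenase subunit that favours lactate production, ran from 177 to 237 (median 200.0) and from 585 to 806 (median 627), a log2 fold change of 1.66 (SE 0.27, adjusted p = 1.40e-05). Its sister subunit Ldhb, read at 2.77 ± 0.922 and 2.54 ± 1.03, had a log2 fold change of -0.10 (SE 0.16, adjusted p = 0.599).

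The pyruvate dehydrogenase kinases moved in opposite directions. Pdk1, a classical HIF-1 target, ran from 4.92 to 6.42 (median 5.61) in SPF isotype and from 2.94 to 4.11 (median 3.32) in SPF aCD3, a log2 change of -0.62 (SE 0.14, adjusted p = 0.000368). Pdk3, also known as inducible in hypoxia, rose from 3.56 ± 0.275 to 5.66 ± 0.420 (log2 0.55, adjusted p = 0.000444). In both genes the groups were apart in every library.

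Of the 4 members of oxygen sensing, Hif1a alone passed the test. It ran from 82.4 to 102 scaled TPM (median 97.1) in SPF isotype and from 243 to 300 (median 268) in SPF aCD3 (log2 fold change 1.5, SE 0.21, adjusted p = 2.98e-06). Egln3, a hydroxylase gene that is itself a known HIF target, ran from 5.85 to 7.76 (median 6.25) and from 5.76 to 7.61 (median 6.22), with nearly the same range in both groups (log2 -0.02, SE 0.18, adjusted p = 0.938). Egln1, the main hydroxylase, and Vhl had log2 fold changes of 0.06 (SE 0.07, adjusted p = 0.512) and -0.11 (SE 0.10, adjusted p = 0.362). Scaling matters here: in TPM as deposited Egln1 and Vhl were called lower, at -0.32 and -0.50, values close to the shift of the median gene.

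The other hypoxia-induced genes were split, with 2 of 9 tested members higher and 4 lower. Ndrg1, a stress and differentiation gene, rose from 1.89 ± 0.451 to 6.40 ± 1.43 scaled TPM (log2 1.35, adjusted p = 2.90e-06). Mxi1, an antagonist of Myc, rose from 7.495 ± 2.39 to 15.0 ± 3.12 (log2 0.94, adjusted p = 1.39e-05). P4ha1, a collagen prolyl hydroxylase subunit, ran from 8.87 to 17.7 (median 12.9) in isotype and from 5.72 to 7.87 (median 6.47) in aCD3, a log2 change of -0.83 (SE 0.14, adjusted p = 2.12e-05). Ero1l, an oxidase of protein folding in the endoplasmic reticulum, ran from 17.3 to 19.6 (median 18.4) and from 10.0 to 12.6 (median 11.4), a log2 change of -0.66 (SE 0.12, adjusted p = 8.03e-05). P4ha1 and Ero1l did not overlap between the groups.

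Kdm3a, a histone demethylase, fell by 0.47 and Bnip3l, a receptor for the removal of mitochondria, by 0.34 on the log2 scale (adjusted p = 0.00372 and 0.00505). Its relative Bnip3, with a median of 31.5 reads per library, ran from 0.817 to 1.73 scaled TPM (median 1.09) in isotype and from 0.660 to 1.08 (median 0.782) in aCD3 (log2 -0.23, SE 0.13, adjusted p = 0.136). Ankrd37 and Higd1a, both known HIF targets, had log2 fold changes of 0.50 (SE 0.35, adjusted p = 0.221) and 0.03 (SE 0.13, adjusted p = 0.873). Vegfa ran from 0.218 to 0.948 (median 0.484) and from 0.0818 to 0.586 (median 0.285) in the SPF groups and was at most 0.735 in the GF groups, with at most 28 reads in any library.

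**Figure D2:**
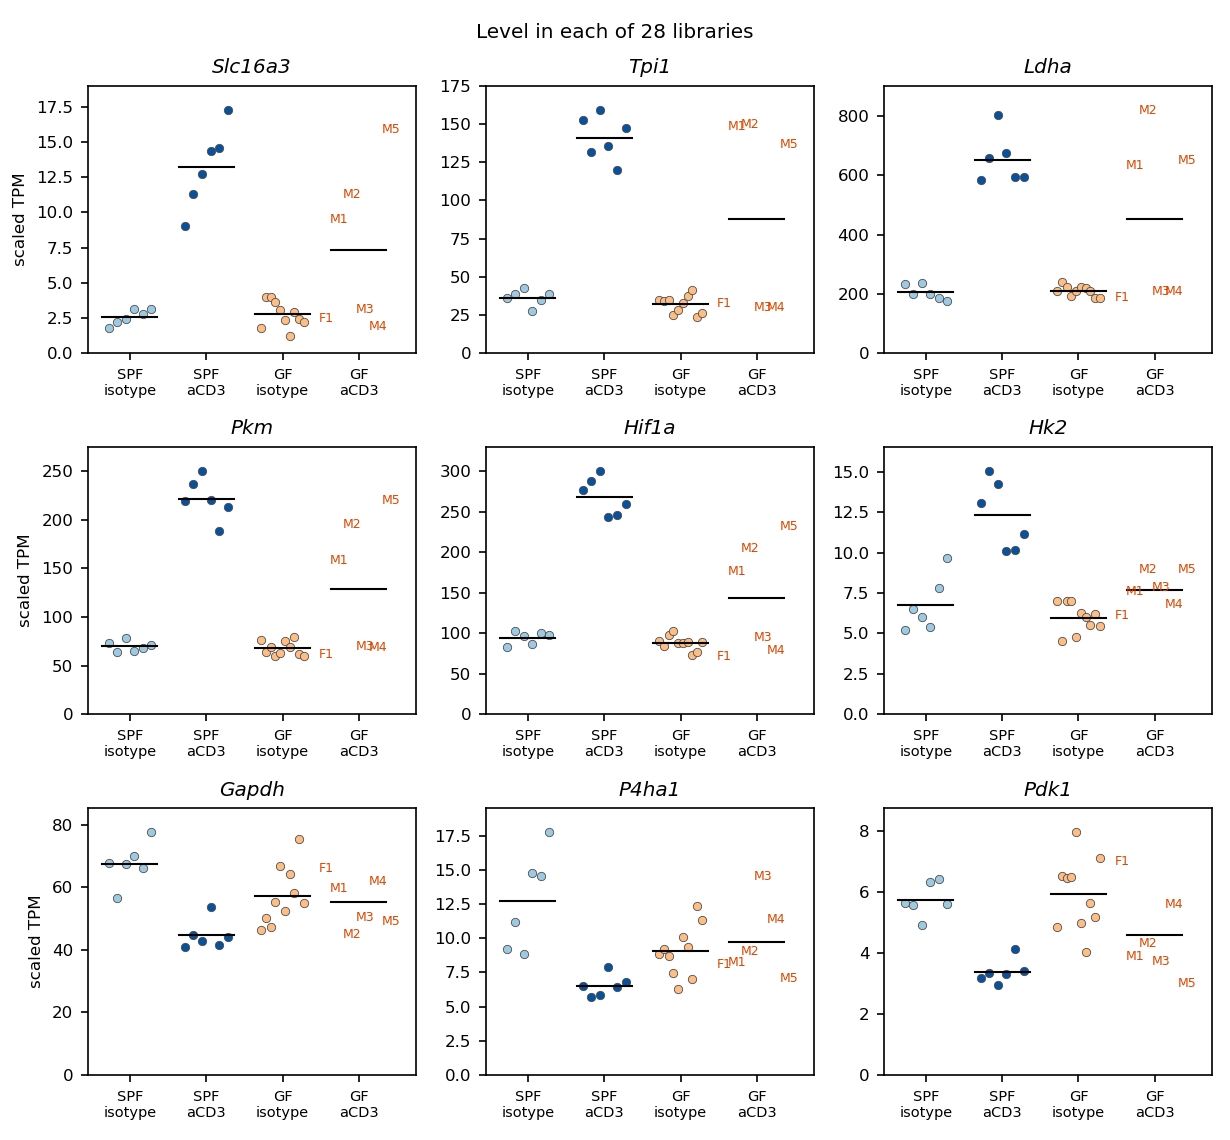
Scaled TPM (vertical axis, from 0) of 9 members in each of 28 libraries, by group (horizontal axis), with a line at the group mean and GF aCD3 libraries written as their replicate names. SPF aCD3 libraries lie apart from SPF isotype in all 9 genes, and in Slc16a3, Tpi1, Ldha, Pkm and Hif1a the GF aCD3 libraries M1, M2 and M5 lie above all GF isotype libraries while F1, M3 and M4 lie within or below their range.

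Ratios of 2 members within a library do not depend on the scaling, and 5 pairs, picked after the values had been seen, are given for their known roles. In SPF mice the log2 ratio of Ldha to Ldhb was 6.27 ± 0.421 (SD, n = 6) in isotype and 8.10 ± 0.525 (n = 6) in aCD3, a difference of 1.82. That of Slc16a3 to Slc16a1 went from -2.86 ± 0.316 to -0.70 ± 0.512, a difference of 2.16. Pgk1 against Gapdh, neighbours in the pathway, went from -3.09 ± 0.239 to -1.29 ± 0.1, a difference of 1.80. Pdk1 against Pdk3 went from 0.69 ± 0.217 to -0.75 ± 0.240, a difference of -1.43. In each of these 4 ratios all 6 aCD3 libraries lay beyond all isotype libraries, with a two-sided exact permutation p of 0.00217, the smallest that 924 arrangements allow here (0.00541 after Benjamini-Hochberg adjustment over 10 ratio tests). Pgk1 and Gapdh, and Pdk1 and Pdk3, each separated the groups alone and in opposite directions, so separation of those ratios was fixed in advance. The adjustment does not cover the choice of pairs on seen values. Ratio p-values here and in GF mice are therefore descriptive only. Hk2 against Hk1 differed by 0.44, with 2 of 6 libraries beyond (exact permutation p = 0.0693, adjusted 0.0866).

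**Figure D3:**
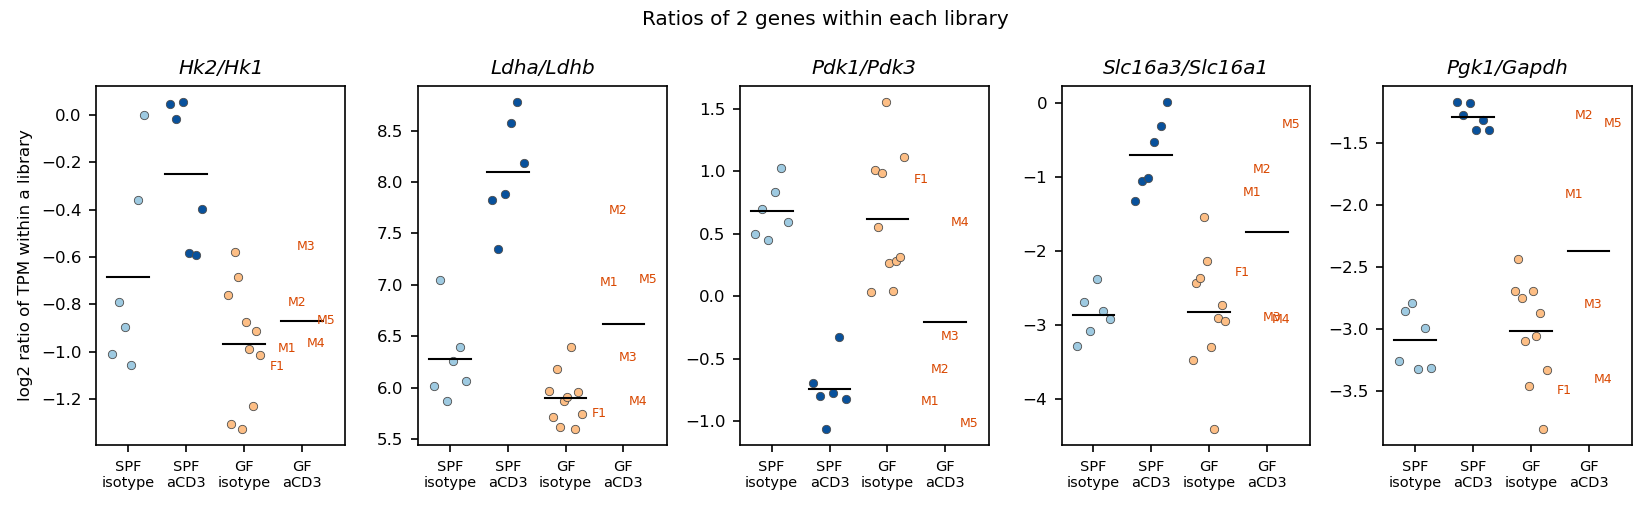
Log2 ratio of TPM of 2 members within each library (vertical axis), by group (horizontal axis), with a line at the group mean and GF aCD3 libraries written as their replicate names. The SPF groups do not overlap for Ldha/Ldhb, Pdk1/Pdk3, Slc16a3/Slc16a1 and Pgk1/Gapdh and do overlap for Hk2/Hk1.

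Further genes of glycolysis and its branches, of the HIF pathway and of its targets passed the test in SPF mice at shares close to the background. Of 60 such genes, chosen by function and not for how they moved, 44 were tested, and 12 (27.3%) rose and 14 (31.8%) fell, beside 30.2% and 29.8% of all tested genes. The 3 highest were Bsg (log2 1.17, adjusted p = 4.26e-06), the chaperone that brings MCT1 and MCT4 to the membrane, Ddit4 (1.00, adjusted p = 0.00486), an inhibitor of mTOR signalling, and Tkt (0.91, adjusted p = 2.99e-05), transketolase of the pentose phosphate pathway. The 3 lowest were the histone demethylase genes Kdm4b (-1.16, adjusted p = 2.03e-05) and Kdm4c (-0.82, adjusted p = 1.04e-05) and Epas1 (-0.95, adjusted p = 0.00045), which encodes HIF-2 alpha. Epas1 thus fell where Hif1a rose: 10.2 ± 1.58 in isotype against 4.81 ± 1.05 in aCD3.

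The same comparison in GF mice asks whether the response occurs without a gut flora. With all 6 aCD3 libraries as labelled, 4 of 36 members rose and 0 fell, beside 5.62% and 4.02% of all tested genes. The 4 were Tpi1 (log2 1.04, SE 0.30, adjusted p = 0.0418), Ldha (0.82, SE 0.25, adjusted p = 0.0428), Pkm (0.70, SE 0.21, adjusted p = 0.0428) and Hk1 (0.24, SE 0.06, adjusted p = 0.0399). The median log2 fold change was 0.13 over the members and -0.01 over all genes, and 20 members had an unadjusted p under 0.05 in limma. The 4 calls lie near the threshold: 0 members passed in limma with a fit on the GF groups alone (14 at an unadjusted p under 0.05) or with the run of sample numbers as a covariate (18 at that level), where 0 of all 12182 genes passed either, while voom on recovered reads called 4, and Pkm and Ldha did not pass without the SPF isotype library F3, which enters through the fit shared by all groups. Within the libraries numbered 25 to 33 and within those numbered 48 to 54, 0 members and 1 of 12182 genes passed in each in limma (10 and 0 members at an unadjusted p under 0.05), with log2 fold changes of 1.22 and 0.91 for Tpi1, 1.13 and 0.55 for Ldha, 0.79 and 0.60 for Pkm and 0.18 and 0.26 for Hk1. In TPM as deposited 3 members were higher and 3 lower, beside 2.46% and 4.61% of all genes. Of the 44 other pathway genes tested, Fam162a rose (0.31, adjusted p = 0.0411) and Kdm4c fell (-0.39, adjusted p = 0.0438), 2.27% each way. Neither passed in TPM as deposited (adjusted p = 0.219 and 0.0537) or in the fit on the GF groups alone.

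Within GF aCD3 the libraries stood at either of 2 levels. Ldha was 635, 820 and 651 scaled TPM in M1, M2 and M5 and 189, 209 and 207 in F1, M3 and M4, against 184 to 240 (median 211) in GF isotype. Tpi1 was 148, 150 and 137 against 32.6, 29.8 and 29.8, with 23.6 to 41.4 (median 33.2) in GF isotype. Pkm was 159, 195 and 221 against 61.7, 69.3 and 68.8, with 59.8 to 79.3 (median 66.5) in GF isotype. In these 3 enzymes the values of F1, M3 and M4 lay within the isotype range.

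Slc16a3 was 9.47, 11.3 and 15.9 in M1, M2 and M5 and 2.44, 3.09 and 1.92 in F1, M3 and M4, against 1.20 to 4.00 (median 2.69) in GF isotype. Hif1a was 176, 205 and 232 against 70.9, 94.1 and 78.8, with 72.5 to 102 (median 88.4) in GF isotype. Their log2 fold changes over all 6 libraries were 0.81 (SE 0.29, adjusted p = 0.0657) and 0.54 (SE 0.19, adjusted p = 0.0605). Both genes thus showed the same division of libraries as the 3 enzymes but did not pass the test.

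Hk2 was 7.61, 8.95 and 8.94 in M1, M2 and M5 and 6.12, 7.81 and 6.76 in F1, M3 and M4, against 4.55 to 7.02 (median 6.11) in GF isotype (log2 0.32, SE 0.12, adjusted p = 0.0795). Here M3 too lay above the isotype range, and all 6 GF aCD3 libraries lay below the 10.1 to 15.0 of SPF aCD3. Slc2a1 was 14.9, 15.9 and 12.9 against 13.1, 19.7 and 13.2, with 11.8 to 21.3 (median 19.2) in GF isotype (log2 -0.32, adjusted p = 0.0755). Slc2a3 ran from 21.9 to 34.5 (median 28.4) in aCD3 and from 22.7 to 39.2 (median 32.8) in isotype (log2 -0.15, adjusted p = 0.36). Both glucose transporters overlapped widely between the groups.

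Of the members that fell in SPF mice, Pdk1 was 3.88, 4.30 and 3.00 in M1, M2 and M5 and 6.999, 3.72 and 5.57 in F1, M3 and M4, against 4.04 to 7.94 (median 6.04) in GF isotype (log2 -0.29, adjusted p = 0.106). Ero1l was 11.6, 14.4 and 12.6 against 16.2, 21.4 and 18.1, with 14.8 to 25.2 (median 21.0) in isotype (log2 -0.34, adjusted p = 0.0535). P4ha1 was 8.19, 9.03 and 7.05 against 8.06, 14.5 and 11.3, with 6.29 to 12.3 (median 9.03) in isotype (log2 -0.04, adjusted p = 0.865). Aldoc ran from 0.399 to 4.10 (median 2.03) in aCD3 and from 0.525 to 2.78 (median 2.16) in isotype (log2 0.14, adjusted p = 0.752). Ero1l lay below the isotype range in all of M1, M2 and M5, Pdk1 in M1 and M5 but also in M3, and P4ha1 and Aldoc in none of M1, M2 and M5.

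Egln3 ran from 5.42 to 10.4 (median 8.64) in GF aCD3 and from 4.11 to 11.03 (median 6.56) in GF isotype (log2 0.14, adjusted p = 0.582). Bnip3 ran from 0.605 to 1.64 (median 1.1) and from 0.404 to 1.26 (median 0.994) (log2 0.10, adjusted p = 0.603). Both genes overlapped between the groups, and in neither were M1, M2 and M5 apart from F1, M3 and M4.

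Without F1, M3 and M4, 21 members passed in the GF comparison, 13 higher and 8 lower, beside 26.4% and 26% of all tested genes. The 13 were the 4 above with Slc16a3 (log2 1.81), Hif1a (1.27), Pgk1 (1.26), Eno1 (0.97), Ndrg1 (0.82), Aldoa (0.72), Pdk3 (0.63), Gpi1 (0.50) and Hk2 (0.47). Tpi1 then stood at 2.22, Ldha at 1.80, Pkm at 1.5 and Hk1 at 0.39. The 8 lower were Kdm3a (-0.76), Ero1l (-0.59), Pdk1 (-0.53), Bnip3l (-0.48), Pfkp (-0.41), Slc2a1 (-0.38), Pfkfb3 (-0.29) and Pfkl (-0.28). Mxi1, Pfkm, Gapdh, P4ha1 and Aldoc, which had passed in SPF mice, did not pass there.

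The members that had passed in SPF mice were also counted library by library. Of the 15 that rose in SPF mice, 13 of M1, 14 of M2 and 14 of M5 lay above every GF isotype library, and 1 each in F1, M3 and M4. For all 3679 genes that rose in SPF mice the same counts as a share were 72.9%, 77.7% and 79.7% in M1, M2 and M5 and 6.90%, 9.43% and 6.77% in F1, M3 and M4. Of the 11 that fell, 4 in M1, 6 in M2 and 6 in M5 lay below every GF isotype library, and 0, 2 and 0 in F1, M3 and M4. For all 3628 genes that fell the shares were 67.6%, 72.9% and 74.3% in M1, M2 and M5 and 8.82%, 6.86% and 5.51% in F1, M3 and M4. All 15 risers and 10 of the 11 fallers had the same sign in GF mice, against 93.7% and 93.1% of all genes.

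**Figure D4:**
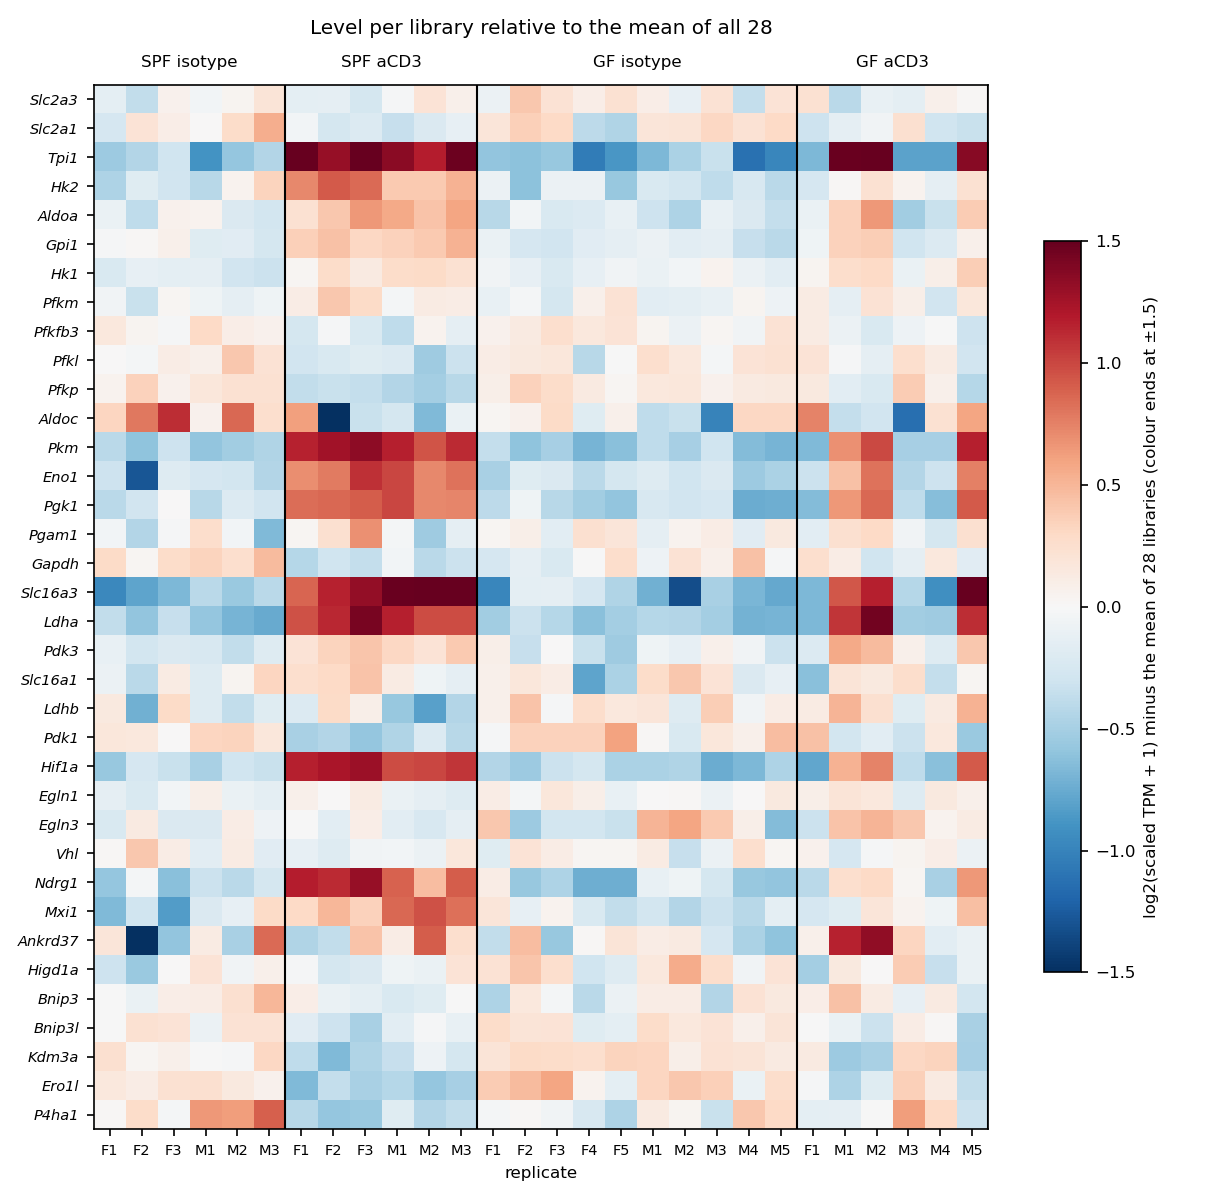
Log2(scaled TPM + 1) of 36 members (rows, grouped by role as in the plot of fold changes) in 28 libraries (columns, by group and replicate), each minus the gene's mean over all 28 libraries, with colours that end at ±1.5. The rows of Tpi1, Pkm, Eno1, Pgk1, Slc16a3, Ldha and Hif1a are red in all SPF aCD3 libraries and in GF aCD3 M1, M2 and M5, and blue to near 0 in F1, M3 and M4 and in all isotype libraries.

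Ratios within a library divided GF aCD3 in the same way for 3 of the 5 pairs. For Ldha/Ldhb, Slc16a3/Slc16a1 and Pgk1/Gapdh, M1, M2 and M5 lay beyond the isotype range and F1, M3 and M4 did not. For Pdk1/Pdk3 M3 lay beyond it as well, and for Hk2/Hk1 M3 alone did. The log2 ratio of Ldha to Ldhb was 5.89 ± 0.248 (SD, n = 10) with isotype in GF mice and 6.62 ± 0.773 (n = 6) with aCD3 (difference 0.72, exact permutation p = 0.0114, adjusted 0.0227, 3 of 6 libraries beyond). Pdk1 against Pdk3 went from 0.62 ± 0.519 to -0.21 ± 0.796 (difference -0.83, exact permutation p = 0.0259, adjusted 0.0431, 4 of 6 beyond). Slc16a3 against Slc16a1 differed by 1.08 (adjusted exact p = 0.059), Pgk1 against Gapdh by 0.65 (adjusted exact p = 0.0968) and Hk2 against Hk1 by 0.10 (adjusted exact p = 0.438). Without F1, M3 and M4 the difference was 1.37 for Ldha against Ldhb, 2.03 for Slc16a3 against Slc16a1, 1.505 for Pgk1 against Gapdh, -1.435 for Pdk1 against Pdk3 and 0.09 for Hk2 against Hk1.

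Isotype-treated GF and SPF mice were compared to ask whether the flora alone moves these genes. In limma 0 of 36 members passed, beside 0.517% of all genes higher and 1.16% lower, and 5 members had an unadjusted p under 0.05: Aldoc, Gapdh, Ldhb, P4ha1 and Higd1a. With voom on the recovered reads 0 members passed as well, beside 225 of all 12182 genes, and 3 members had an unadjusted p under 0.05. P4ha1 had the smallest adjusted p, at 9.07 ± 1.87 (SD, n = 10) scaled TPM in GF and 12.7 ± 3.53 (n = 6) in SPF (log2 -0.43, SE 0.12, adjusted p = 0.0812). Ldha was 210 ± 17.9 in GF and 205 ± 24.4 in SPF, Pkm 67.9 ± 7.11 and 70.1 ± 5.62, and the transcription factor gene Hif1a 87.6 ± 8.77 and 94.3 ± 7.79. Of the cell type markers, 1 of 3 tested for B and plasma cells and 2 of 3 for stromal and endothelial cells were lower in GF isotype. In TPM as deposited Hk1, Ldhb and Egln1 were called higher in GF, beside 6.42% of all genes higher and 0.755% lower and a shift of 0.15 in the median gene.

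Between the aCD3 groups of GF and SPF mice, 16 members differed, 4 higher in GF and 12 lower, beside 16.1% and 16.7% of all tested genes. Higher in GF were Ldhb (log2 0.57), Ero1l (0.42), Pfkp (0.39) and Pfkl (0.30). The 12 lower ran from Slc16a3 (-1.13), Tpi1 (-1.09) and Hif1a (-1.07) to Aldoa (-0.41) and Gpi1 (-0.34). In Hif1a and Hk2 all 6 GF libraries lay below all SPF libraries, M1, M2 and M5 included: Hif1a reached 232 in GF against at least 243 in SPF. In TPM as deposited the split was 16 higher and 5 lower, beside 48.9% and 4.46% of all genes and a shift of 0.34 in the median gene. Of the markers tested after scaling, 7 of 8 acinar ones were higher in GF aCD3. Lower there were 7 of 8 proliferation genes, 5 of 7 T cell markers, and 1 each of 2 CD8, 2 myeloid and 8 epithelial markers. Their part in these differences was not tested.

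Fewer members passed without F1, M3 and M4, a fit with fewer libraries. In it 1 of 36 members passed, Ldhb, at 0.83 higher in GF (adjusted p = 0.0252), beside 0.731% of all genes higher and 1.49% lower. Ldha and Tpi1 then stood at 0.17 and 0.09 (adjusted p = 0.5 and 0.863), so their sign turned. Hif1a went from -1.07 to -0.34 (adjusted p = 0.0729) and Ndrg1 from -0.93 to -0.56 (adjusted p = 0.179). Mxi1 went from -0.67 to -0.57 (adjusted p = 0.161) and Hk2 from -0.61 to -0.46 (adjusted p = 0.185), so both kept most of their difference but no longer passed.

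The aCD3 effect itself differed between GF and SPF mice in 8 of 36 members by the interaction term, 3 higher and 5 lower, beside 5.3% and 6.03% of all tested genes. P4ha1 (0.79, adjusted p = 0.0162), Gapdh (0.51, adjusted p = 0.0333) and Pfkp (0.41, adjusted p = 0.0388) had a less negative effect in GF. Hif1a (-0.96, adjusted p = 0.0333), Pkm (-0.95, adjusted p = 0.0469), Ndrg1 (-0.90, adjusted p = 0.0276), Eno1 (-0.87, adjusted p = 0.0377) and Mxi1 (-0.77, adjusted p = 0.0249) had a less positive one. Pkm did not pass without the SPF aCD3 library F1 (-0.94, adjusted p = 0.0608), and its adjusted p ran from 0.0324 to 0.726 over the alternatives. For Ldha (-0.84, adjusted p = 0.111), Tpi1 (-0.89, adjusted p = 0.167) and Slc16a3 (-1.17, adjusted p = 0.0714) the difference did not pass. Without F1, M3 and M4 0 members passed in limma (7 at an unadjusted p under 0.05), beside 0.0985% and 0.0903% of all genes, and in TPM as deposited 2 were higher and 0 lower, beside 2.44% and 1.04%.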

How the data were processed

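The authors deposited TPM for 25124 genes, computed with HOMER's analyzeRepeats.pl over build mm10 with transcripts condensed by gene, per the file headers. Column names end as STAR, an aligner, names its output by default. The labels' tool list (Cell Ranger 7.1.0, R 4.4.2, Seurat 5.1.0, per the submitters' processing notes) gives no roles, and read filters, strand use and versions of HOMER and STAR are not given in the sources used here. A total RNA kit is named in the design text, polyA RNA in a label. A further 26 TPM columns match no sample and were not used.

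Whole reads were recovered from deposited TPM times length in 100.0% of values up to 20 reads, within 0.1 read. No 2 libraries were identical (378 pairs, Pearson's r from 0.855 to 0.973). The test took the 12182 genes that reached 1 TPM in 6 or more libraries. TPM divided by median-of-ratios factors (0.716 to 1.23), plus a pseudocount of 1, entered limma 3.58.1 (R 4.3.3) on the log2 scale, with a mean per group, a sex term, all 28 libraries and a trended empirical Bayes prior. Tests were two-sided and adjusted by Benjamini-Hochberg over all genes tested, with a threshold of 0.05. The code was tested on simulated data. Ratios used exact permutation tests in NumPy 2.4.6, with pandas 2.3.3 and Python 3.11.15.

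Members, lists, tests and the rule for named genes were chosen with earlier results of these data known. The rule gives library values for Slc2a1, Slc2a3, Hk2, Ldha, Pdk1, Hif1a, Egln3, Bnip3, Vegfa and the 4 highest and 4 lowest calls in SPF mice. Alternatives were pseudocounts of 0.1 and 5, filters, scalings, models, a fold minimum of 0.5, covariates, a replicate block and left-out libraries. Gene overlaps came from GENCODE M21 and promoters from RefSeq.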

Additional observations from a re-analysis of the deposited data

Results flagged for a closer look

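A library far from the rest of its group was found in 4 of 148 sets of a member in a group, against 7.4 that chance gives. Eno1 was at 16.1 scaled TPM in SPF isotype F2, with the other 5 libraries at 29.6 to 35.3. Gapdh was at 53.8 in SPF aCD3 M1, with the others at 41.0 to 44.7, so this library alone came near the SPF isotype range that starts at 56.5. Pfkl was at 6.80 in GF isotype F4, with the others at 9.21 to 11.4. Egln1 was at 9.89 in GF aCD3 M3, with the others at 12.1 to 13.2.

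The aCD3 effect in GF minus that in SPF mice passed the interaction test in 8 members, all on the log2 scale. P4ha1 (0.79), Gapdh (0.51) and Pfkp (0.41) lay above 0. Hif1a (-0.96), Pkm (-0.95), Ndrg1 (-0.90), Eno1 (-0.87) and Mxi1 (-0.77) lay below 0. In a fit without GF aCD3 F1, M3 and M4, which shares all its other libraries with the first, 0 passed (limma, 7 of 36 members at an unadjusted p under 0.05): P4ha1 stood at 0.53, Gapdh at 0.36, Pfkp at 0.18, Hif1a at -0.23, Pkm at -0.14, Ndrg1 at -0.53, Eno1 at -0.34 and Mxi1 at -0.67.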

How the results depend on the processing

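In SPF mice 19 of the 26 calls were made in all 14 alternatives other than the fold minimum. Aldoc, Ndrg1 and Pfkm were not tested with TPM of at least 5. The count ran from 18 with the fold minimum to 27 in TPM as deposited, beside 4499 and 7898 of all 12182 genes. Hk1, Gpi1, Aldoa, Pdk3 and Pfkm were lost there, and Slc2a3 (-0.41), Ldhb (-0.38), Vhl (-0.50), Bnip3 (-0.41), Higd1a (-0.35) and Egln1 (-0.32) were called lower. Aldoa was also lost with quantile normalization, and Pfkm without Rn45s and histone genes. In GF mice the 4 calls became 0 with no low-value filter (21 at an unadjusted p under 0.05 in limma), with the fit on the groups compared, with the run covariate, and within either run. They became 2 without SPF isotype replicate F3, 7 with TPM of at least 5, 13 with array weights (10 higher, 3 lower) and 21 without F1, M3 and M4. All tested genes moved with them: 1175 of 12182 were called with all libraries, 0 in the first 3 of these settings, 1 within either run, 782 without SPF isotype F3, 1325 of 9117 with TPM of at least 5, 2291 with array weights and 6380 without F1, M3 and M4. Between isotype groups the 0 calls became 3 in TPM as deposited, 5 without Rn45s and histone genes, 1 with array weights and 1 without F1, M3 and M4. In the same order, calls over all tested genes went from 204 of 12182 to 874, 2369 of 12114, 440 and 514. Between aCD3 groups the 16 calls became 3 with the fit on the groups compared and 1 without F1, M3 and M4. Calls over all 12182 genes went from 3988 to 853 and 270. Between the same groups the split of 4 higher and 12 lower became 14 and 6 without Rn45s and histone genes, where all genes split 4957 higher and 594 lower with a median shift of 0.28. Among members called in either fit, the signs turned there for Slc2a3 (0.39), Gpi1 (0.056) and Hk1 (0.32) in TPM as deposited, for Hk1 (0.23) without Rn45s and histone genes, and for Tpi1 (0.085) and Ldha (0.17) without F1, M3 and M4, and 5, 6 and 6 further members, called in neither fit, turned in these settings. The 8 differences of effects became 4 with no low-value filter, 2 in TPM as deposited, 5 with quantile normalization, 4 without Rn45s and histone genes and 0 without F1, M3 and M4. Over all tested genes these went from 1381 of 12182 to 895 of 20695, 424, 791, 631 of 12114 and 23. Without SPF aCD3 replicate F1, left out after its S100a8 was seen, the counts were 26, 4, 0, 17 and 7. Over all 12182 genes they were 7043, 906, 189, 3569 and 1024. The causes were not tested.

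Whether shared replicate names pair the libraries is not settled here. Deviations of same-named libraries from their group means correlated from -0.21 to 0.21, but libraries of different names were not set beside them. With a replicate block the calls were 26 in SPF, 0 in GF (18 unadjusted), 0 between isotype groups, 11 between aCD3 groups and 4 differences of effects. In the same order, 7198, 0, 219, 2581 and 809 of all 12182 genes were called. Depth limits Aldoc, Ankrd37, Bnip3 and Vegfa, with medians of 10 to 31.5 reads.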

Other observations

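Some members differed by sex letter in SPF mice, a pattern seen after the values and not tested. P4ha1 was 9.20, 11.2 and 8.87 scaled TPM in the female isotype libraries F1, F2 and F3 and 14.8, 14.5 and 17.7 in the males M1, M2 and M3, but with aCD3 6.53, 5.72 and 5.84 against 7.87, 6.42 and 6.81, which overlap. Mxi1 was 11.5, 13.3 and 11.97 in the female SPF aCD3 libraries and 17.5, 18.7 and 17.1 in the males, and with isotype 5.44, 7.29 and 4.69 against 7.74, 8.37 and 11.4. Hk2 was higher in females with aCD3, at 13.1, 15.0 and 14.3 against 10.1, 10.2 and 11.2 in males, but not with isotype, at 5.17, 6.502 and 5.985 against 5.39, 7.78 and 9.67. Among GF isotype libraries Mxi1 ran from 6.87 to 10.5 in females and from 6.52 to 8.18 in males, and P4ha1 from 6.29 to 9.20 and from 7.01 to 12.3, so both sexes overlapped there.

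Egln3 varied more among GF libraries than among SPF libraries, in both treatments. In GF isotype it was 9.55 in F1 and 10.4, 11.03 and 9.52 in M1, M2 and M3, and between 4.11 and 7.52 in the other 6. The 7 GF libraries above 9.5, with aCD3 M1, M2 and M3 at 9.78, 10.4 and 9.60, all lie among those numbered 25 to 33, where F2 and F3 of isotype were at 4.49 and 5.60. The highest value among those numbered 48 to 54 was 7.68. In the SPF groups all 12 libraries lay between 5.76 and 7.76.

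Ankrd37 was at 9.26 and 10.5 scaled TPM in GF aCD3 M1 and M2, and at 7.61 or less in each of the other 26 libraries, with a median of 18.5 reads per library over all 28.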
